A study of Mus musculus with 80 samples.

Results

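The genes that make, store, recover and receive dopamine were followed through 5 regions of the female mouse brain and between virgin and primiparous animals. They were 9 of the 27179 genes in the count table, taken by name: Th, Ddc, Slc18a2, Slc6a3 and the receptor genes Drd1, Drd2, Drd3, Drd4 and Drd5. The rule used names and no measured value, but the genes were chosen with earlier results of these data known. The samples were RNA from dissected tissue of 16 C57BL/6 females, a strain that the methods of the study give as C57BL/6J. The animals were age-matched within a few days and kept in a single barrier room, 8 of them virgin and 8 primiparous. A primiparous female had been penned with a male from 8 weeks of age and had raised a first litter; virgin females were housed in groups and had met no male, so mating, pregnancy, birth and nursing cannot be told apart here. The labels place the harvest 3 weeks after weaning, and the methods of the study place it somewhat later. The hypothalamus was taken whole and the amygdala, hippocampus, cortex (neocortex in the labels) and cerebellum from the left side only, and the same animals gave all regions.

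Dopamine is made from tyrosine. Tyrosine hydroxylase, the product of Th, carries out the rate-limiting step, and aromatic L-amino acid decarboxylase, the product of Ddc, turns the L-DOPA that results into dopamine. The vesicular monoamine transporter Slc18a2 loads dopamine, and also serotonin, noradrenaline and histamine, into vesicles, whereas the plasma membrane transporter Slc6a3 takes dopamine back into the terminals that release it. Most brain dopamine neurons lie in the ventral midbrain, but the hypothalamus holds groups of its own, among them the tuberoinfundibular neurons of the arcuate nucleus that hold back prolactin release from the pituitary and are known to alter their output around lactation. Dopamine receptors fall into a D1 class (Drd1, Drd5), which couples to stimulatory G proteins, and a D2 class (Drd2, Drd3, Drd4), which couples to inhibitory ones. Receptor mRNA is found in the cells that receive dopamine, and for Drd2 also in the dopamine neurons themselves.

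In the GRCm38 annotation Th lies at chr7:142892752-142931128 on the minus strand, Ddc at chr11:11814101-11898144 on the minus strand, Slc18a2 at chr19:59260896-59296012 on the plus strand and Slc6a3 at chr13:73536747-73578672 on the plus strand. The receptor genes lie at chr13:54051183-54055705 (Drd1, minus), chr5:38319367-38322518 (Drd5, plus), chr9:49340627-49408177 (Drd2, plus), chr16:43754026-43822932 (Drd3, plus) and chr7:141292006-141296464 (Drd4, plus). The counts cover the exons of each gene. An antisense gene overlaps Ddc, Slc18a2 and Drd5, and the library kit did not keep strand, so reads of those overlaps cannot be told apart.

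The 4 genes of synthesis and transport shared a peak in the hypothalamus but parted elsewhere, and the bases just upstream of their start sites are shown for that reason. All 9 genes matched an entry in the RefSeq promoter table (GRCm38.p6). Each run is written 5′ to 3′ on the strand of the gene and ends at the last base before the RefSeq start site, apart from Th, whose run stops 19 bases short of it because an annotated exon covers those bases. Positions are counted back from that start site, and G and C content is that of the whole window of 250 bases. Capitals mark matches, on either strand, to TGACGTCA (the cAMP response element, CRE), AAAGGTCA (the element of the Nr4a nuclear receptors, NBRE) or TATAAA, the core promoter box.
Th, chr7:142900015-142900245, minus strand: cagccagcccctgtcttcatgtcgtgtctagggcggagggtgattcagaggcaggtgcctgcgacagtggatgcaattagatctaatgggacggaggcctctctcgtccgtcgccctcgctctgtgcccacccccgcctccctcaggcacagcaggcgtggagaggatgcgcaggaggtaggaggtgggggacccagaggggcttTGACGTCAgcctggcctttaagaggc
Ddc, chr11:11898145-11898394, minus strand: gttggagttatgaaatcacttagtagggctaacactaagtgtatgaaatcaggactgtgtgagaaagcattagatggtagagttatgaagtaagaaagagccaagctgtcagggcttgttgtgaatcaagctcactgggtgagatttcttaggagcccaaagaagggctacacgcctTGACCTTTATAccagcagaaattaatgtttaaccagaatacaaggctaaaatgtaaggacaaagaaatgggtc
Slc6a3, chr13:73536497-73536746, plus strand: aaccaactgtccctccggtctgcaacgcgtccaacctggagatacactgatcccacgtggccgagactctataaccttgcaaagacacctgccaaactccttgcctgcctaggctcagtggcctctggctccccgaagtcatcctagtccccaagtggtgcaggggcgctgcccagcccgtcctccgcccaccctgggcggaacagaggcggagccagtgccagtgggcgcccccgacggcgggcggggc
Slc18a2, chr19:59260628-59260877, plus strand: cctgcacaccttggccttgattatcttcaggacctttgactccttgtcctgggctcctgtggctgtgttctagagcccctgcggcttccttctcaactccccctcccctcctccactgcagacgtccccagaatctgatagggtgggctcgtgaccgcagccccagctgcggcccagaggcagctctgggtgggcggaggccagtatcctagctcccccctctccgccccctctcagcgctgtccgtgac
The Th window held a CRE match that began 45 bases before the start site, counting the 19 bases not shown, a word found in 1.55% of 32851 promoter windows of 250 bases. The first Ddc entry held an NBRE match read on the other strand at -73, a word found in 1.34% of windows, and a TATAAA match at -68 that overlapped it, also read on the other strand, against 12.4% of windows. No match to these 3 words stood in the Slc6a3 or Slc18a2 window, nor in the receptor windows, which says only that the letters are absent there. In base composition the printed Ddc window was low in G and C, with 40.8% and 1 CpG, while the second Ddc entry of the table, at an inner start site (chr11:11890409-11890658), held 56.0% and 4 CpG and no match to these words, and the windows of Th, Slc6a3 and Slc18a2 held 64.4%, 66.0% and 64.0% and between 9 and 16 CpG. The median window held 52.4% and 6 CpG. These matches are a description and no site of binding was measured.

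Counts were available for 77 of 80 labelled libraries, with 7959192 to 37871854 reads assigned to genes in each (median 17623886). The hypothalamus and cortex had 8 libraries of each state, and the amygdala, hippocampus and cerebellum 7 virgin and 8 primiparous. Marker genes of hypothalamus and cerebellum fitted the labels. Summed read counts scaled to a common library size (CPM) of Pmch, Hcrt, Oxt and Avp reached at least 772 in each hypothalamus library and at most 70.4 in any other. A cerebellar list of 4 genes reached at least 4575 in cerebellum. The amygdala list (Cyp26b1, Rspo2, Meis2, Lhx6) did not set the amygdala apart, with median sums of 179 and 194 in its virgin and primiparous libraries and 220 and 214 in cortex. The hippocampus and cortex lists overlapped the amygdala at the edge. Their highest sums in virgin amygdala were 302 and 256 CPM, against lowest sums of 299 in hippocampus and 252 in cortex. The hippocampus of primiparous animal 413 carried 413 CPM of the cerebellar list, and leaving it out changed no call between regions for the 9 genes. 

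At a level of 5 CPM, the abundance filter of the study, Slc18a2 was met in 65 libraries, Ddc in 63, Drd1 in 54, Th in 45, Drd2 in 25, Drd5 in 19 and Slc6a3 in 15. Drd3 and Drd4 reached it in no library. Between regions, edgeR called 9 of the 9 genes different between hypothalamus and amygdala, against 65.8% of the 16866 genes tested. The count was 8 between hypothalamus and hippocampus (67.4% of all genes), 9 between hypothalamus and cortex (72.6%) and 9 between hypothalamus and cerebellum (76.1%). It was 8 between amygdala and hippocampus (52.4%), 6 between amygdala and cortex (55.5%), 7 between amygdala and cerebellum (74.9%), 6 between hippocampus and cortex (59.3%), 8 between hippocampus and cerebellum (73.3%) and 8 between cortex and cerebellum (74.8%). With limma-voom, Drd4 between hypothalamus and hippocampus (log2 -0.96, adjusted p = 0.151, against -2.70 with edgeR) and Th between amygdala and hippocampus (log2 1.33, adjusted p = 0.248) did not pass. Most genes differ between regions, so the description rests on the sizes of the differences and not on these counts. In bulk tissue, fewer cells of a type and less RNA per cell cannot be told apart.

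**Figure D1:**
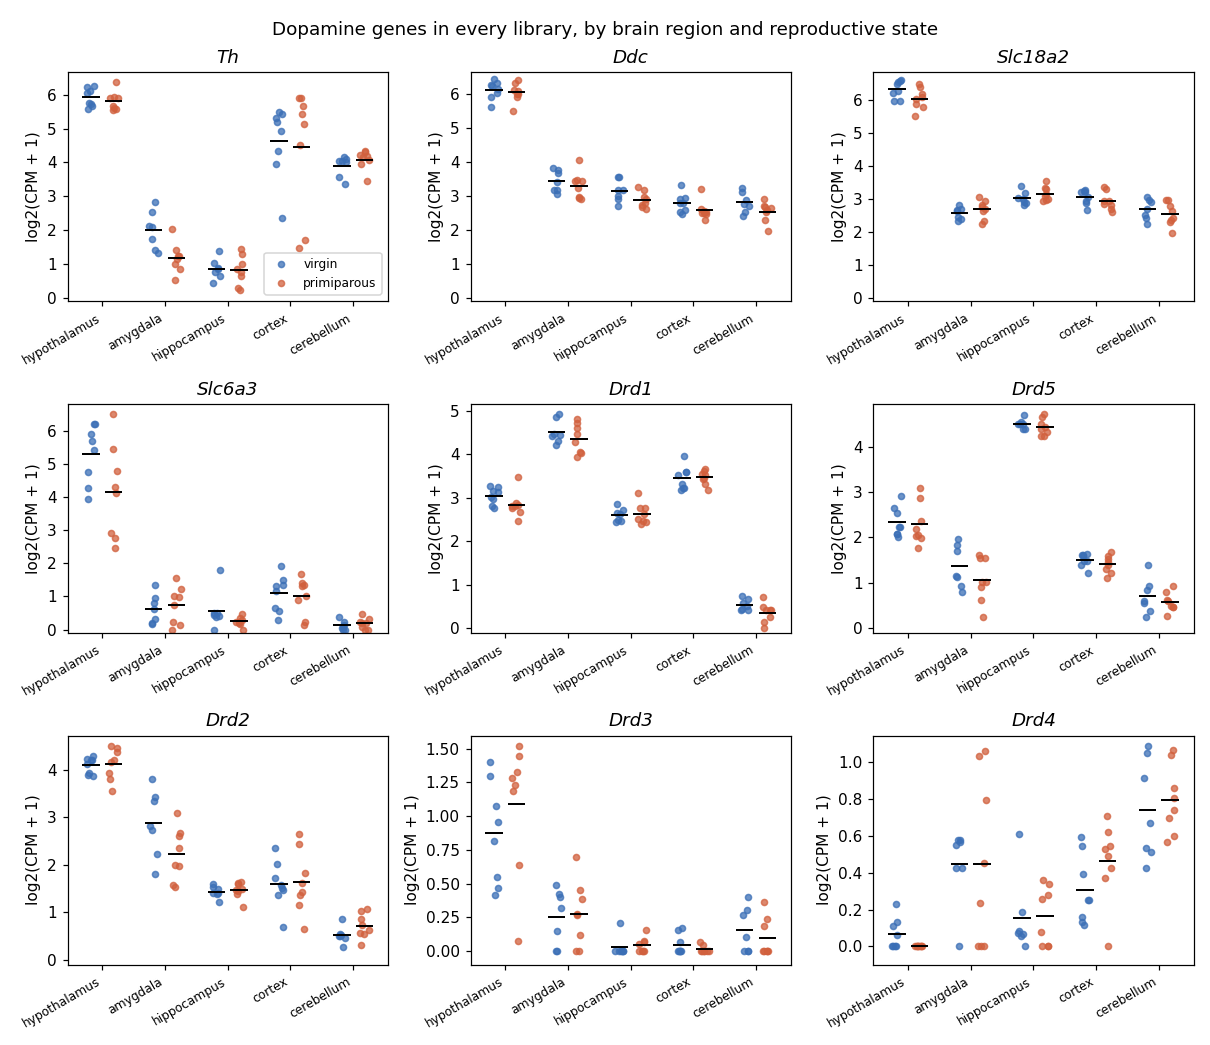
Level of each of the 9 genes in every library, as log2(CPM + 1), by region and reproductive state, with a bar at the mean of each group. Slc6a3 stands high in the hypothalamus and near 0 in the other regions, Drd5 is highest in the hippocampus, Drd1 in the amygdala, and Th spreads widely among the cortex libraries.

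Th was highest in the hypothalamus, where the 16 libraries ran from 46.1 to 82.0 CPM with a median of 56.1 (58.5 ± 11.7, SD). In the cerebellum it ran from 9.33 to 19.1 CPM (15.3 ± 3.03, n = 15), and no cerebellar library reached the hypothalamic range. In the cortex it ran from 1.76 to 59.2 CPM with a median of 35.1 (31.2 ± 18.9, n = 16), so that the cortex overlapped the hypothalamus at its upper end and the amygdala at its lower. The amygdala (2.27 ± 1.6 CPM, n = 15) and the hippocampus (0.836 ± 0.469 CPM, n = 15) held little Th. The hypothalamic level was 1.73-fold that of cortex (log2 0.79, SE 0.23, edgeR quasi-likelihood test, adjusted p = 0.00169), 3.78-fold that of cerebellum (adjusted p = 1.46e-10), 24.6-fold that of amygdala (adjusted p = 4.55e-22) and 60.3-fold that of hippocampus (adjusted p = 2.71e-26). Th was the gene among the 4 with substantial mRNA outside the hypothalamus, and the hypothalamus held 54.1% of its summed region means.

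Ddc also peaked in the hypothalamus, from 43.7 to 84.7 CPM with a median of 67.6 (67.5 ± 11.8, n = 16). The other regions lay within a narrow band, with 9.54 ± 2.65 CPM in amygdala, 7.20 ± 1.80 in hippocampus, 5.52 ± 1.42 in cortex and 5.46 ± 1.38 in cerebellum, and the highest of their libraries, at 15.5 CPM, stayed far below the hypothalamic range. The hypothalamic level was 6.33-fold that of amygdala (log2 2.66, SE 0.11, edgeR adjusted p = 1.16e-35) and 12-fold that of cerebellum (adjusted p = 2.14e-43). Each step of the order among amygdala, hippocampus and cortex passed the test (adjusted p = 0.00288 and 0.000623), whereas cortex and cerebellum did not differ beyond their spread (log2 0.10, SE 0.12, adjusted p = 0.437). Ddc thus did not follow Th into the cortex or the cerebellum.

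Slc18a2 was also highest in the hypothalamus, from 44.6 to 97.3 CPM with a median of 72.4 (73.4 ± 15.8, n = 16). It averaged 7.65 ± 1.32 CPM in hippocampus, 7.07 ± 1.35 in cortex, 5.26 ± 1.03 in amygdala and 5.26 ± 1.38 in cerebellum. The hypothalamus stood 8.55-fold above hippocampus (log2 3.10, SE 0.10, edgeR adjusted p = 1.83e-43) and 13.8-fold above cerebellum (adjusted p = 2.99e-48). Hippocampus and cortex did not differ beyond their spread (log2 0.14, adjusted p = 0.254), nor did amygdala and cerebellum (log2 0.14, adjusted p = 0.262), while the step from cortex to amygdala passed (adjusted p = 0.000755). Outside the hypothalamus its order was not that of Ddc: amygdala over hippocampus was -0.55 on the log2 scale for Slc18a2 (edgeR adjusted p = 1.17e-05) and 0.39 for Ddc. Neurons of other amines also use this transporter. Hdc, which makes histamine, averaged 68.2 ± 10.7 CPM in the hypothalamus, whereas Dbh, which makes noradrenaline, averaged 0.0271 CPM there and the 4 serotonergic markers summed to at most 1.79 CPM in any hypothalamic library.

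Slc6a3, the marker of dopamine terminals and their cell bodies, was the gene most concentrated in the hypothalamus, which held 93.6% of its summed region means. Its 16 hypothalamic libraries ran from 4.56 to 88.8 CPM with a median of 26.1 (35.3 ± 26.8, SD), a 19.5-fold spread, where Th, Ddc and Slc18a2 spread 1.78-, 1.94- and 2.18-fold in the same libraries. Means elsewhere were 1.20 CPM in cortex, 0.700 in amygdala, 0.386 in hippocampus and 0.121 in cerebellum, and no library outside the hypothalamus exceeded 2.80 CPM. The hypothalamus exceeded the cortex 26.5-fold (log2 4.73, SE 0.36, edgeR adjusted p = 3.60e-19). Amygdala did not differ beyond its spread from cortex (adjusted p = 0.177) or hippocampus (adjusted p = 0.200). At these low counts, the steps from amygdala and hippocampus down to cerebellum passed with edgeR (adjusted p = 0.000993 and 0.0411) but not with limma-voom (adjusted p = 0.131 and 0.341), and the same held for cortex over hippocampus (edgeR 0.00358, limma-voom adjusted p = 0.139).

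Drd1, the main stimulatory receptor of the striatum and its neighbours, was highest in the amygdala, from 14.2 to 29.1 CPM with a median of 20.8 (21.0 ± 4.63, n = 15). It averaged 10.1 ± 1.69 CPM in cortex (n = 16), 6.81 ± 1.43 in hypothalamus, 5.22 ± 0.893 in hippocampus and 0.375 ± 0.187 in cerebellum. The amygdala stood 2.11-fold above cortex (log2 1.08, SE 0.11, edgeR adjusted p = 6.68e-15), with ranges that met only at the edge (highest cortex library 14.5 CPM), and 65.5-fold above cerebellum (adjusted p = 1.60e-51). Hypothalamus and hippocampus did not differ beyond their spread (log2 0.22, SE 0.11, adjusted p = 0.0808), although with only the genes past 5 CPM in 8 libraries the adjusted p was 0.0480.

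Drd5, the other receptor of the D1 class, was highest in the hippocampus, from 17.7 to 25.3 CPM with a median of 21.5 (21.2 ± 2.31, n = 15). The highest library of any other region held 7.48 CPM. The hypothalamus followed with 4.15 ± 1.5 CPM, then cortex with 1.76 ± 0.317, amygdala with 1.42 ± 0.792 and cerebellum with 0.597 ± 0.368. The hippocampus exceeded the hypothalamus 5.73-fold (log2 2.52, SE 0.16, edgeR adjusted p = 2.41e-25), the cortex 12.2-fold (adjusted p = 1.54e-32) and the amygdala 15-fold (adjusted p = 1.40e-32). Amygdala and cortex did not differ beyond their spread (adjusted p = 0.189). With a coefficient of variation of 10.9% in the hippocampus, Drd5 was also the steadiest of the 9 genes in any region.

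Drd2, the autoreceptor of dopamine neurons and the receptor of indirect-pathway striatal neurons, was highest in the hypothalamus, from 10.7 to 21.8 CPM with a median of 17.1 (16.5 ± 3.02, n = 16). The amygdala averaged 5.45 ± 3.21 CPM with a range from 1.91 to 12.9, the cortex 2.29 ± 1.32, the hippocampus 1.76 ± 0.268 and the cerebellum 0.566 ± 0.269. The hypothalamus exceeded the amygdala 2.77-fold (log2 1.47, SE 0.19, edgeR adjusted p = 8.74e-11) although the highest amygdala library, at 12.9 CPM, lay inside the hypothalamic range. Hippocampus and cortex did not differ beyond their spread (log2 -0.32, adjusted p = 0.184), and in the cortex Drd2 spread 9.18-fold among libraries against 1.81-fold in the hippocampus.

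Drd3 and Drd4, the rarer receptors of the D2 class, stayed near the limit of detection. Drd3 averaged 1.05 ± 0.563 CPM in the hypothalamus (0.0511 to 1.87) and 0.215 CPM or less in the other regions; in cortex 9 reads were counted over 16 libraries, 11 of which had none. It was 4.40-fold higher in hypothalamus than amygdala (log2 2.14, SE 0.44, edgeR adjusted p = 1.27e-05). Drd4, by contrast, was lowest in the hypothalamus, with 0.728 ± 0.269 CPM in cerebellum, 0.403 in amygdala, 0.317 in cortex, 0.125 in hippocampus and 0.0243 in hypothalamus itself, where 7 reads were counted in all. The hypothalamus lay below the cerebellum by the fitted value (log2 -5.17, SE 0.63, edgeR adjusted p = 1.82e-11), a size that depended on the fit (-4.59 with the animal as a block and -3.96 with limma-voom), and the lowest cerebellar library (0.345 CPM) lay above the highest hypothalamic one (0.171 CPM). For cerebellum over amygdala the call depended on the test, with an edgeR adjusted p of 0.0871, of 0.0329 with the animal as a block and of 0.00108 with limma-voom. The same held for Drd3 in cerebellum over cortex, where the edgeR adjusted p was 0.0471, and 0.0888 with the block, against 0.439 with limma-voom.

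Between genes, levels are comparable only per length, here as reads per kilobase of exon, scaled to library size as CPM is (RPKM). On that scale Drd2 made up 62.9% of the receptor mRNA of the hypothalamus and Drd1 18.2%. In the amygdala the order turned, with 67.1% for Drd1 and 24.8% for Drd2, and the cortex was alike at 64.0% and 20.7%. The hippocampus was led by Drd5 at 75.5%, with Drd1 at 16.2%. In the cerebellum the summed receptor level was low and spread over Drd2 (28.3%), Drd4 (27.4%) and Drd5 (24.1%). Drd2 thus led in hypothalamus and, by a narrow margin, in cerebellum, Drd1 in amygdala and cortex, and Drd5 in hippocampus. Among the genes of synthesis and transport in the hypothalamus, mean RPKM was 24.8 for Th, 15.1 for Ddc, 14.1 for Slc18a2 and 10.2 for Slc6a3.

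**Figure D2:**
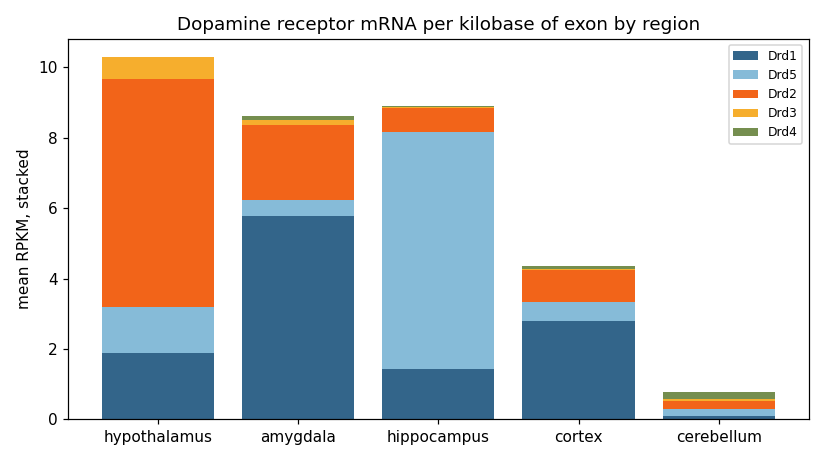
Mean RPKM of the 5 receptor genes in each region, stacked, so that the height of a bar is the summed receptor mRNA per kilobase of exon. Drd2 fills most of the hypothalamus bar (6.47 RPKM), Drd1 most of the amygdala bar (5.78) and Drd5 most of the hippocampus bar (6.71), and the cerebellum bar is low.

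Ratios within a library do not depend on its depth, and 4 of them were compared between regions over the animals that gave both (32 comparisons in all, exact sign-flip test, two-sided). Counts of Drd1 stood at a median of 0.441 of those of Drd2 in the hypothalamus and at 4.72-fold in the amygdala, 2.89-fold in the hippocampus and 4.83-fold in the cortex. The mean log2 ratio was lower in the hypothalamus than in the amygdala in 15 of 15 animals, by 3.41 ± 0.98 (SD; exact p = 6.1e-05, the smallest that 15 animals allow, adjusted p = 0.000178). Amygdala and cortex did not differ in it beyond the spread between animals (log2 -0.12, exact adjusted p = 0.676). As a ratio of counts, not corrected for the different lengths of the genes and so read only between regions, Th over Ddc had a median of 0.857 in the hypothalamus, was higher in cortex (5.64) and cerebellum (2.90) and lower in amygdala (0.183) and hippocampus (0.106). The cerebellum exceeded the hypothalamus in this ratio in 15 of 15 animals (log2 1.70 in size, exact adjusted p = 0.000178), while cortex and cerebellum did not differ beyond the spread (log2 0.47, exact adjusted p = 0.347). Slc18a2 over Ddc varied least between regions, from a median of 0.600-fold in amygdala to 1.29-fold in cortex, and was lower in the amygdala than in the hypothalamus in 15 of 15 animals (log2 0.94 in size, exact adjusted p = 0.000178).

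The second question was whether first motherhood left a difference in these genes. In no region did edgeR's quasi-likelihood test call any of the 7 genes that passed the abundance filter, nor Drd3 in hypothalamus or Drd4 in cerebellum, which were tested with a wider filter (18.4% and 0.376% of genes called there). In the hypothalamus 22.6% of all 13016 genes were called (11.8% lower and 10.8% higher in primiparous animals), in the cerebellum 0.707%, and in amygdala, hippocampus and cortex 0%. At an unadjusted p under 0.05 the members were Slc18a2 in the hypothalamus (37.1% of all genes there), Th and Drd2 in the amygdala (11.9%), Ddc and Slc6a3 in the hippocampus (7.38%), and none in cortex (9.80%) or cerebellum (19.5%). DESeq2 also called 0 in each region, and limma-voom, the test that the study used, called 1, Slc6a3 in the hypothalamus. For each of the 9 genes, the virgin and primiparous ranges overlapped in each region, and ranges without overlap were found for 0.884% of the tested genes in hypothalamus, 0.146% in amygdala, 0.0845% in hippocampus, 0.0154% in cortex and 0.323% in cerebellum. State is bound up with the animals: those with 3-digit numbers were 2 virgin and 7 primiparous, those with 4-digit numbers 6 virgin and 1 primiparous. With that series as a covariate, 3 genes of the whole table were called in the hypothalamus.

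**Figure D3:**
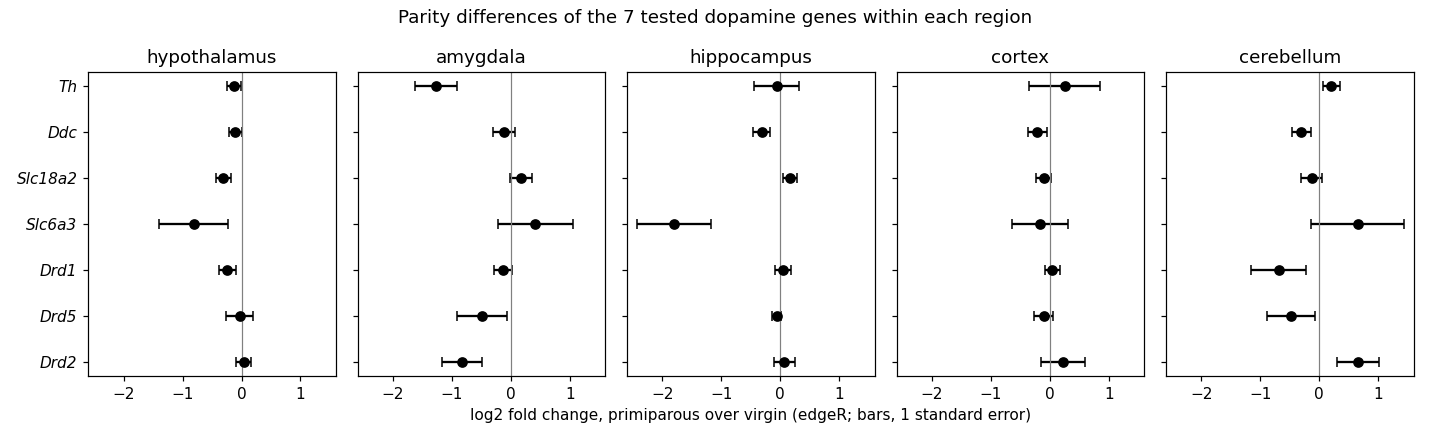
Log2 fold change of the 7 tested genes, primiparous over virgin, within each region, with bars of 1 standard error from edgeR. The estimates for Slc6a3 in hippocampus (-1.80) and hypothalamus (-0.81) and for Th (-1.28) and Drd2 (-0.83) in amygdala lie farthest below 0, and none passed the test after adjustment.

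In the hypothalamus the 4 genes of synthesis and transport all had estimates below 0, and none passed. Th was at 60.7 ± 11.7 CPM in virgin and 56.4 ± 12 in primiparous animals (log2 -0.13, SE 0.12, edgeR adjusted p = 0.448). Ddc was at 69.4 ± 11.9 and 65.7 ± 12.1 (log2 -0.10, SE 0.11, edgeR adjusted p = 0.538). For these enzymes the gap between states was a fraction of the spread within them. Slc18a2 ran from 61.0 to 97.3 CPM (median 82.4) in virgin and from 44.6 to 87.6 CPM (median 65.5) in primiparous animals, 6 of 8 of which lay below the virgin mean (log2 -0.31, SE 0.13, edgeR adjusted p = 0.0865). Without primiparous animal 427 it was -0.37 and passed (edgeR adjusted p = 0.0321), as it did without virgin animal 409 (-0.36, adjusted p = 0.0351). Slc6a3 ran from 14.4 to 72.9 CPM (median 46.1) in virgin and from 4.56 to 88.8 CPM (median 17.7) in primiparous animals. In 7 of 8 primiparous animals it lay below the virgin mean, and animal 427, at 88.8 CPM, was the highest of all 16 libraries (log2 -0.81, SE 0.59, edgeR adjusted p = 0.333). With limma-voom, the test that the study used, which weighs the log values, the difference was -1.37 and passed (adjusted p = 0.0453). The study reported lower Slc6a3 in the hypothalamus of primiparous than of virgin females. The call of Slc6a3 thus depended on the test. Without 1 library at a time, the edgeR estimate ran from -1.41 to -0.65 and did not pass.

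No receptor gene of the hypothalamus passed either. Drd1 averaged 7.32 ± 1.06 CPM in virgin and 6.31 ± 1.63 in primiparous animals (log2 -0.24, SE 0.15, edgeR adjusted p = 0.235), and 7 of 8 primiparous libraries lay below the virgin mean. Without primiparous animal 418, the highest at 10.1 CPM, the estimate became -0.38 and passed (edgeR adjusted p = 0.0253). Drd2 averaged 16.1 ± 1.94 and 16.8 ± 3.94 CPM (log2 0.04, SE 0.13, edgeR adjusted p = 0.844), Drd5 4.17 ± 1.24 and 4.12 ± 1.80 CPM (log2 -0.03, SE 0.23, adjusted p = 0.946) and Drd3 0.888 ± 0.493 and 1.22 ± 0.612 CPM (log2 0.41, SE 0.43, adjusted p = 0.535). Drd4 was counted in 4 of 8 virgin libraries, 7 reads in all, and in none of the primiparous ones, which allows up to 0.0242 CPM over those 8 libraries together, and it was not tested.

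The ratio of Slc18a2 to Ddc, both used by monoamine neurons, was lower in the hypothalamus of primiparous animals. Its mean log2 value was 0.21 ± 0.09 in virgin and 0.01 ± 0.13 in primiparous animals, a difference of -0.21 (exact permutation test, p = 0.00311, adjusted p = 0.0280 over 18 comparisons). With 1 library left out at a time the difference ran from -0.24 to -0.18 with an exact p of at most 0.00637. Among 3-digit animals it was -0.34, and among 4-digit animals, with 1 primiparous, it was 0.02, so the difference did not appear within both series. The 12 listed markers of ventral midbrain dopamine neurons summed to a median of 250 CPM in virgin and 198 CPM in primiparous hypothalamus. Their part in the lower ratio was not tested. For Slc6a3 over Th the difference was -1.11 (exact p = 0.0483, adjusted p = 0.290).

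In the amygdala Th ran from 1.51 to 6.16 CPM (median 3.28) in virgin and from 0.443 to 3.05 CPM (median 1.29) in primiparous animals, on 377 and 148 reads in all. All 8 primiparous libraries lay below the virgin mean, although the ranges overlapped, and the difference (log2 -1.28, SE 0.36) had an unadjusted edgeR p of 0.00158 and an adjusted p of 0.201. The ratio of Th to Ddc was lower in primiparous animals by 1.13 on the log2 scale (-1.71 ± 0.70 in virgin, -2.84 ± 0.48 in primiparous; exact permutation test, p = 0.00233, adjusted p = 0.0280). It kept its sign within the 3-digit animals (-1.70) and within the 4-digit animals (-0.87, with 1 primiparous), and its exact p reached at most 0.00641 with 1 library left out at a time. Of 8 tested markers of midbrain dopamine neurons none passed in the amygdala, but their median log2 fold change was -0.34 against 0.00 over all genes, and the 12 listed summed to 65.9 to 103 CPM (median 86.5) in virgin and 67.6 to 111 CPM (median 79.5) in primiparous libraries. Their part in the lower Th was not tested. The parity difference of Th was smaller in the hypothalamus (log2 -0.13) than in the amygdala (-1.28). In 1 fit of both regions, hypothalamus minus amygdala was 1.16 (SE 0.36, edgeR interaction test, adjusted p = 0.0259), where 18.2% of all genes were called. With the animal as a block this Th value was 1.10 and did not pass (adjusted p = 0.0763). Of the 7 genes against each of the other 4 regions, Th against amygdala was, without the block, the only one of 28 such differences to pass. Of all genes, 17.2% passed against hippocampus, 0% against cortex and 15.5% against cerebellum. With the block Slc18a2 passed instead (-0.52, adjusted p = 0.0364; without it -0.49, adjusted p = 0.0815).

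Drd2 in the amygdala ran from 2.48 to 12.9 CPM (median 6.08) in virgin and from 1.91 to 7.55 CPM (median 3.55) in primiparous animals (log2 -0.83, SE 0.34, edgeR adjusted p = 0.327). Of the 14 striatal marker genes 13 were tested, with a median log2 fold change of -0.30 against 0.00 over all genes, and none passed. All 14 were detected, and they summed to 864 to 1426 CPM (median 974) in virgin and 766 to 1122 (median 903) in primiparous libraries. Drd2 rose with that sum over the 15 libraries once the state means were removed (Pearson's r = 0.85, permutation adjusted p = 0.00154; Spearman's rho = 0.84, adjusted p = 0.0029; r = 0.85 without the 2 farthest libraries). The relation held within the 9 libraries of 3-digit animals (r = 0.80), but within the 6 of 4-digit animals r fell from 0.91 to 0.43 without the 2 farthest. Drd1, though expressed in striatum as well, followed the list less closely (r = 0.52, permutation adjusted p = 0.156). Whether striatal tissue had a part in the parity estimate was not tested.

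In the hippocampus Slc6a3 had a low estimate (log2 -1.80, SE 0.63, edgeR adjusted p = 0.599) that rested on virgin animal 4491, at 2.49 CPM where the other 14 libraries held at most 0.42 CPM. Without 1 library at a time the estimate ran from -2.08 to -0.71. Ddc averaged 8.02 ± 2.05 CPM in virgin and 6.48 ± 1.28 in primiparous hippocampus (log2 -0.32, SE 0.14, edgeR adjusted p = 0.661). Drd5, the leading hippocampal receptor gene, was at 21.7 ± 1.66 and 20.7 ± 2.79 CPM (log2 -0.06, SE 0.08, edgeR adjusted p = 0.900), one of the most precise comparisons of the set. In the cerebellum Drd2 had an estimate of 0.66 (SE 0.36, edgeR adjusted p = 0.310), Drd1 of -0.69 (SE 0.46, adjusted p = 0.411), Th of 0.21 (SE 0.14, adjusted p = 0.414) and Drd4 of 0.03 (SE 0.32, adjusted p = 0.974).

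The spread of Th, Slc6a3 and Slc18a2 among hypothalamic libraries followed the sum of a list of ventral midbrain markers. All 12 listed markers of ventral midbrain dopamine neurons were detected there, among them Ret at 73.1 ± 11.2 CPM, Lmx1a at 6.93 ± 1.68, Foxa1 at 6.58 ± 1.45 and Chrna6 at 8.88 ± 4.82, with Pitx3 at 0.492 ± 0.241. The list is not exclusive to the midbrain: Lmx1a and Foxa1 are also made by posterior hypothalamic neurons, and its sum reached 499 to 620 CPM in cerebellum. In hypothalamus the sum ran from 205 to 302 CPM (median 250) in virgin and from 161 to 271 CPM (median 198) in primiparous libraries. With the state means removed, Th rose with this sum (r = 0.92, rho = 0.89, permutation adjusted p = 0.00027, the smallest reached; r = 0.90 without the 2 farthest), within the 3-digit animals (r = 0.96) and within the 4-digit animals (r = 0.94). Slc6a3 did so too (r = 0.85, rho = 0.83, permutation adjusted p = 0.00081; r = 0.78 without the 2 farthest). For Slc18a2 r was 0.82 (rho = 0.85, permutation adjusted p = 0.00189), with 0.88 within the 9 libraries of 3-digit animals and 0.80 within the 7 of 4-digit animals (unadjusted permutation p = 0.00592 and 0.0661), and Ddc was looser (r = 0.63, rho = 0.70, adjusted p = 0.0601). These 3 were added after the spread of Slc6a3 was seen. Th and Slc6a3 rose together (r = 0.86, rho = 0.81, permutation adjusted p = 0.00054). Of the receptor genes, Drd1 (r = 0.07, permutation adjusted p = 0.888) and Drd2 (r = 0.39, adjusted p = 0.403) did not pass against the midbrain sum. Of the 8 midbrain markers past the filter, Aldh1a1 was lower in primiparous animals and the other 7 did not pass, where 11.8% of all genes tested were lower. The 8 had a median log2 fold change of -0.34 against 0.01 over all genes, and of -0.34 in the amygdala too. The median of the 4 genes of synthesis and transport was -0.22. The 8 olfactory bulb markers summed to a median of 93.8 CPM (87.4 to 118) in virgin and 123 CPM (89.7 to 147) in primiparous hypothalamus. Of these 8, 1 was called higher (Tbx21), where 10.8% of all genes tested were higher. The list had a median log2 fold change of 0.42 against 0.01 over all genes. Whether the amount of adjoining midbrain or of other tissue in the samples entered the estimates for Slc6a3 and Slc18a2, or the ratio of Slc18a2 to Ddc, was not tested.

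**Figure D4:**
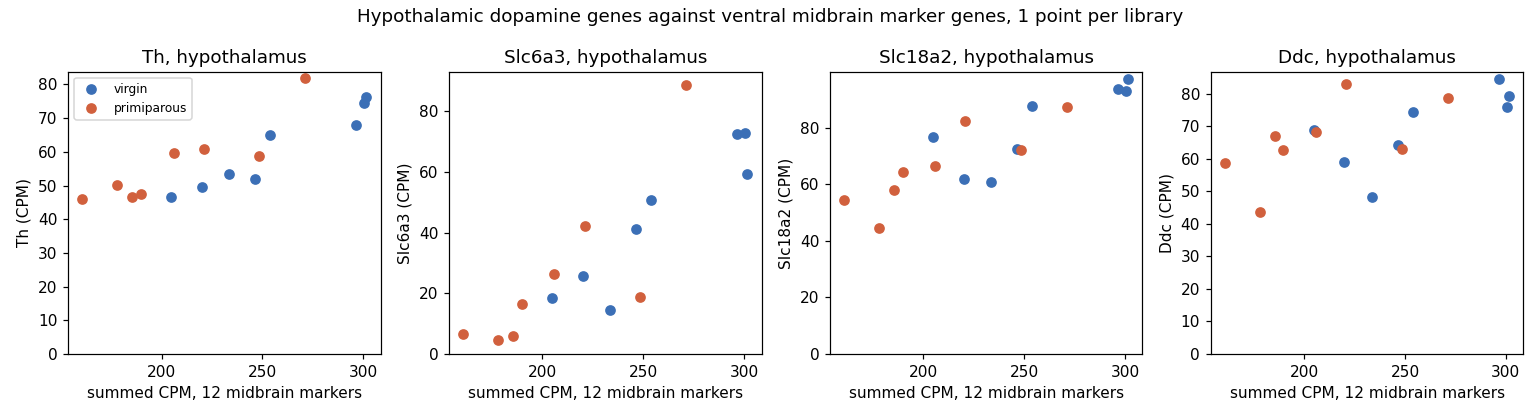
Hypothalamic dopamine genes (CPM) against the summed CPM of 12 ventral midbrain marker genes, with 1 point for each of 16 libraries, coloured by state. The points rise together, and the primiparous libraries lie lower on the marker axis (median 198 against 250).

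The cortex showed a like pattern for another structure. Th was at 1.76 and 2.24 CPM in primiparous animals 425 and 413 and at 4.15 in virgin animal 405, and from 14.4 to 59.2 CPM in the other 13 libraries. The 8 listed markers of the olfactory bulb, which holds dopamine neurons among its periglomerular cells, summed to 20.7, 14.5 and 47.7 CPM in these 3 libraries and to 136 to 413 CPM in the others. Over the 13 others, with the state means removed, r between Th and the list was 0.98 (rho = 0.96, permutation p = 1e-05, the smallest that the permutations can give; r = 0.95 without the 2 farthest). Slc6a3 followed Th over the same libraries at a far lower level (r = 0.89, permutation p = 3e-05), and Drd2 followed the striatal list (r = 0.91, permutation p = 0.00019). Within 4-digit animals that last relation rested on the 2 farthest libraries (r = 0.90 with them and -0.28 without), and within 3-digit animals r was 0.76 and 0.47. Th did not differ by state (28.6 ± 14.6 and 33.8 ± 23.2 CPM, log2 0.25, SE 0.60, edgeR adjusted p = 0.871), and the olfactory bulb list had a median log2 fold change of 0.06. How much of the cortical Th came from bulb tissue was not tested.

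**Figure D5:**
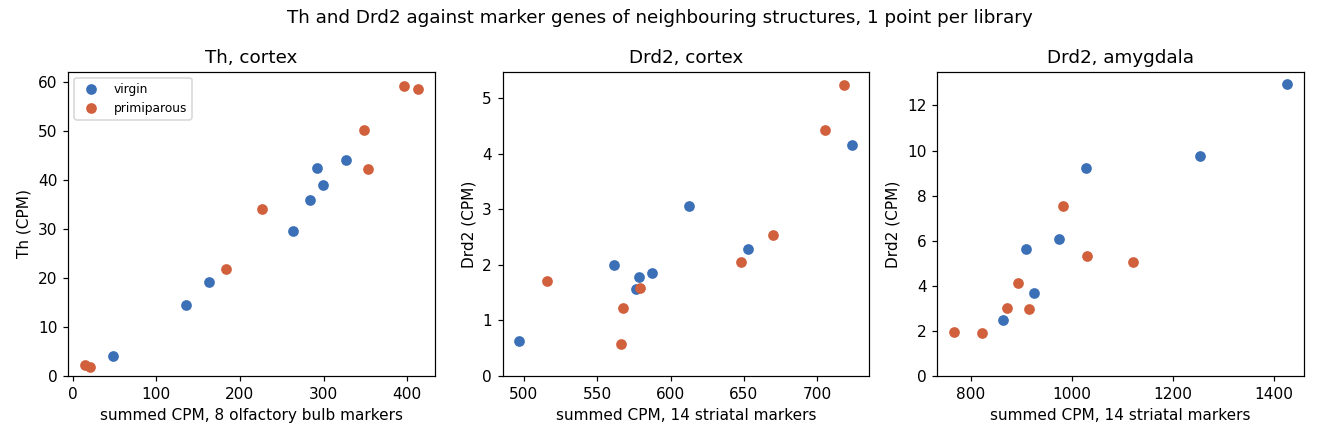
Th in cortex (CPM) against the summed CPM of 8 olfactory bulb marker genes, and Drd2 in cortex and amygdala (CPM) against that of 14 striatal marker genes, with 1 point per library, coloured by state. The 3 cortex libraries with Th of at most 4.15 CPM are also the 3 with bulb marker sums under 50 CPM.

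Genes whose levels ran most closely with each member over all 77 libraries were named by Pearson's r of log2(CPM + 1), where shared region differences dominate. For Slc6a3 they were Chrna6, a nicotinic receptor subunit of dopamine neurons (r = 0.96), Slc18a2 and Foxa1 (0.93 each), and for Slc18a2 they included Foxa1 and Six6 (0.97 each). For Th they were Kcnh2 (0.89), Relt and Ldhd, for Ddc Pgr15l, Gprasp2 and Scn9a (0.97 to 0.98), and for Drd2 Tmem130, Fndc9 and Adgrg1 (0.94 each). Drd1 ran with 4930539E08Rik and Dclk3 (0.97 each), and Drd5 with Vwa3b, Olfml2b and Rasd1 (0.94 each). After the mean of each region and state was removed, Th was closest to Ms4a15 (0.89), S100a5 (0.86) and Scgn (0.85), and Slc6a3 to Chrna6 (0.67). Drd2 was closest to Syndig1l (0.60), Myrf (0.55) and Adora2a (0.54), the last being the adenosine receptor of indirect-pathway striatal neurons. For Ddc, Slc18a2, Drd1 and Drd5 no gene exceeded 0.60 on that scale.

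Around the members, other genes of the pathway did pass the parity test in the hypothalamus, in both directions. Of 7 genes that make or recycle tetrahydrobiopterin, the cofactor of tyrosine hydroxylase, 6 were tested and 2 were higher in primiparous animals: Spr, the last enzyme of its synthesis, from 32.2 ± 3.36 to 42.4 ± 7.59 CPM (log2 0.37, SE 0.10, edgeR adjusted p = 0.00906), and Qdpr, which recycles it, from 92.6 ± 6.90 to 109 ± 14.7 CPM (log2 0.22, adjusted p = 0.0258). Gch1, the first enzyme of the route, was at 7.61 ± 1.25 and 7.46 ± 2.70 CPM (edgeR adjusted p = 0.836). Among all genes tested 10.8% were higher. The median over the 6 was -0.01, against 0.01 over all genes. Spr passed without any 1 of the 16 libraries, while Qdpr did not pass without primiparous animal 413 or 414 or virgin animal 4487, 4488 or 4491 (edgeR adjusted p up to 0.0611) or in 1 fit of all 10 groups (adjusted p = 0.0654). Qdpr was also called in the cerebellum (log2 0.29, edgeR adjusted p = 0.0274), but not without primiparous animal 413 or 415 or virgin animal 409, 4486 or 4487 (adjusted p up to 0.0913) or in that fit (adjusted p = 0.0878).

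Among the 6 genes of dopamine breakdown, 3 were lower and 2 higher in the primiparous hypothalamus. Of all genes tested there, 11.8% were lower and 10.8% higher. Both monoamine oxidases were lower, Maob from 66.1 ± 3.90 to 57.8 ± 4.22 CPM (log2 -0.22, SE 0.05, edgeR adjusted p = 0.00761) and Maoa from 79.7 ± 7.86 to 69.9 ± 8.46 CPM (log2 -0.21, adjusted p = 0.0390). Aldehyde dehydrogenases, which oxidise the product of the monoamine oxidases, went both ways: Aldh1a1 was lower (log2 -0.42, edgeR adjusted p = 0.0109), Aldh2 higher (log2 0.25, adjusted p = 0.0109) and Aldh7a1 higher (log2 0.14, adjusted p = 0.0486). Maob, Aldh1a1 and Aldh2 passed without any 1 library, whereas Maoa passed in 6 of 16 such fits and Aldh7a1 in 3. No breakdown gene passed with the animal-number series as a covariate or with trends in gene length and GC content removed. In 1 fit of all 10 groups Maob (edgeR adjusted p = 0.0944) and Aldh7a1 (0.0776) did not pass. With limma-voom Maoa (adjusted p = 0.0578) and Aldh7a1 (0.0595) did not pass. Aldh7a1 also missed with edgeR under RLE scaling (adjusted p = 0.0512) and with the wider filter (0.0549).

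Of 26 genes that carry receptor signals, 5 were lower and 6 higher. The lower ones were Prkar2b (log2 -0.31, edgeR adjusted p = 0.0021), Gnal, the stimulatory G protein of Drd1 neurons (-0.22, adjusted p = 0.00379), Gnai1 (-0.19, adjusted p = 0.00485), Gnai3 (-0.24, adjusted p = 0.00971) and Prkacb (-0.17, adjusted p = 0.0118). The higher ones were Arrb2, a beta-arrestin (log2 0.25, edgeR adjusted p = 0.0117), Akt1 (0.21, adjusted p = 0.0203), Prkaca (0.17, adjusted p = 0.0207), Gnai2 (0.21, adjusted p = 0.0233), Caly (0.20, adjusted p = 0.0241) and Grk2 (0.15, adjusted p = 0.0448). The 5 lower genes and Arrb2, Akt1 and Prkaca passed without any 1 of the 16 libraries, but without primiparous animal 421 the number of higher genes fell to 3. In 1 fit of all 10 groups Prkacb (edgeR adjusted p = 0.0741), Caly (0.0938) and Grk2 (0.0552) did not pass. Grk2 also missed with limma-voom (adjusted p = 0.0547) and with the wider filter (edgeR adjusted p = 0.0513). With the animal-number series as a covariate no gene of the 3 lists passed (0 in each), with estimates of 0.28 for Spr (edgeR adjusted p = 0.279), -0.22 for Maob (0.176) and -0.27 for Prkar2b (0.155). Other estimates shrank more, to -0.10 for Maoa (edgeR adjusted p = 0.598), 0.09 for Caly (0.576) and 0.15 for Arrb2 (0.395). Prkaca at 0.22 and Gnai3 at -0.25 were no smaller than before. With trends in gene length and GC content removed, the called genes that still passed were Spr (log2 0.32, edgeR adjusted p = 0.0321), Gnal (-0.21, adjusted p = 0.00438) and Prkar2b (-0.16, adjusted p = 0.0480). Lower signalling genes numbered 3 there, Gnal and Prkar2b among them. Qdpr did not pass (0.13, edgeR adjusted p = 0.213), nor did any gene of dopamine breakdown, and Maoa (0.03) and Gnai1 (0.00079) lost their direction. In that fit 0 of the 6 higher signalling genes passed, with estimates from 0.0027 for Grk2 to 0.13 for Arrb2 (edgeR adjusted p = 0.982 and 0.277), and neither did Gnai3 (-0.03, adjusted p = 0.846) or Prkacb (-0.07, adjusted p = 0.257). Over the 3 lists the shares called stood beside 11.8% lower and 10.8% higher among all genes tested.

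The arcuate nucleus, where the tuberoinfundibular dopamine neurons lie, was followed through a list of 9 genes, 7 of which were tested in the hypothalamus. Both genes called were higher in primiparous animals: Gal, the galanin precursor, from 28.7 ± 3.24 to 37.6 ± 7.77 CPM (log2 0.36, SE 0.10, edgeR adjusted p = 0.0167) and Npy, the neuropeptide Y precursor, from 26.0 ± 7.16 to 38.4 ± 7.55 CPM (log2 0.53, SE 0.15, adjusted p = 0.0168). These are 2 of 7 genes, where 10.8% of all genes tested were higher. The median over the 7 was 0.24, against 0.01 over all genes, and the alternatives were not run on this list. A rise of this list was not particular to the hypothalamus. Its median was 0.34 in cortex and 0.28 in hippocampus, against -0.0027 and -0.00015 over all genes, with none called there. In virgin libraries the list summed to a median of 126 CPM in cortex and 207 CPM in hypothalamus, so it does not mark arcuate neurons alone. Agrp was at 8.46 ± 2.86 and 11.7 ± 3.69 CPM (edgeR adjusted p = 0.130), Tac2 at 31.7 ± 4.57 and 36.8 ± 4.24 CPM (adjusted p = 0.109), and Pomc at 81.2 ± 13.3 and 86.1 ± 17.7 CPM (adjusted p = 0.727). Prl, the pituitary hormone that these neurons hold back, spread widely in the hypothalamic samples (16.5 ± 41.8 CPM in virgin and 21.8 ± 36.7 in primiparous animals, edgeR adjusted p = 0.864). Of the 4 listed markers of histamine neurons, Slc18a2 among them, 1 was lower (Maob) and none higher, where 11.8% of all genes tested were lower and 10.8% higher. Their median log2 fold change was -0.02, and Hdc was at 63.2 ± 10.3 and 73.2 ± 8.95 CPM (log2 0.19, edgeR adjusted p = 0.12).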

How the data were processed

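Whole-tissue RNA of 5 brain regions was sequenced from 16 animals. Per the submitters' processing notes and the methods of the study, the authors used CASAVA, HISAT2 (genome mm10) and featureCounts to make the deposited raw counts per gene, and edgeR and limma downstream. Versions and the strand setting are not given in the sources used here, and the kit did not keep strand. The deposited log2 expression table, made by the authors for 13016 genes, was read for gene symbols and to check the gene filter and the scale. The filter kept the same 13016 genes. The median absolute difference of the deposited values from log2(CPM + 4) was 3.94, so they were not on that scale, and they entered no test. Of 80 labelled libraries, 3 virgin ones (hippocampus, cerebellum, amygdala) had no column, and the study set them aside as outliers. Intervals and floors cover counting error only.

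Counts were fitted within each region by edgeR 4.0.16 (R 4.3.3, TMM, quasi-likelihood test, Benjamini-Hochberg adjustment, threshold 0.05) over 13016 genes that reached 5 CPM in at least 8 libraries. Regions were compared over 16866 genes kept by filterByExpr. Ratios used 0.5 counts as pseudocount, correlations log2(CPM + 1) and 100000 permutations (scipy 1.17.1), and RPKM the exon lengths of GENCODE M21. The state test in hypothalamus and the difference of the parity effect between hypothalamus and cerebellum were tried on simulated data. The comparisons of regions, the series covariate and the length and GC correction were not. Same-numbered libraries come from the same animal, and their deviations correlated weakly (median r 0.0119 to 0.077 between regions, against -0.0109 to -0.0027 for different animals). No libraries of a group were near-identical (smallest chi-square per gene 2.50). Alternatives were limma-voom 3.58.1, DESeq2 1.42.0, other scalings and filters, a block for animal, trends in length and GC content (known for 97.0% of genes) and each library left out. Members and lists were chosen with earlier results of these data known. Named genes were all members, up to 6 listed pathway genes with the smallest adjusted p in a region with calls, and the 3 genes closest to each member by Pearson's r; other pathway genes were named after their values were seen. A few named genes are not reported here. Replicates are separate animals.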

Additional observations from a re-analysis of the deposited data

Results flagged for a closer look

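Among 57 groups of 7 or 8 libraries with a member at 1 CPM or more, 3 held a library farther from the rest than Dixon's 95% limit allows, and chance alone marks about 1 in 20 groups. Th in the cerebellum of primiparous animal 418 was lowest at 9.89 CPM, where the nearest of the other primiparous libraries held 14.6 CPM. Ddc in the cortex of primiparous animal 427 was highest at 8.17 CPM, with the next at 5.05 CPM. Drd1 in the hypothalamus of primiparous animal 418 was highest at 10.1 CPM, with the next at 6.41 CPM.

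The parity difference of Th differed between hypothalamus and amygdala by 1.16 on the log2 scale (SE 0.36, edgeR interaction test, adjusted p = 0.0259), and by 1.10 with the animal as a block (adjusted p = 0.0763).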

How the results depend on the processing

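Of 869 alternative values for the parity fold changes of the 9 genes, 821 kept their direction and their side of the threshold, as did 417 of 430 for region differences and 81 of 84 for differences of the parity effect between regions. Of the 9 genes, 0 were called by parity in the hypothalamus, 1 with limma-voom, and 0 to 1 with 1 library left out. Of the 7 tested, 1 was called in the hypothalamus minus amygdala difference of the parity effect, 1 with the animal as a replicate block and 0 with the block and a length and GC correction. The block changed the calls given for Th and Slc18a2 there and for Drd3 and Drd4 between regions. All fold changes that turned sign had not passed the test, apart from Maoa and Gnai1, and the Slc18a2 to Ddc ratio in hypothalamus had passed too. With the animal-number series as a covariate Drd3 in hypothalamus turned to -0.292, Slc6a3 in amygdala to -0.409, Th, Drd1 and Drd5 in hippocampus to 0.0983, -0.0478 and 0.0113, Drd5 in cortex to 0.000433 and Drd2 in cerebellum to -0.0606. Among 3-digit animals alone Ddc in hypothalamus turned to 0.079, Th, Slc6a3 and Drd1 in hippocampus to 0.583, 0.151 and -0.0171, Slc18a2, Slc6a3, Drd1 and Drd2 in cortex to 0.0069, 0.0149, -0.206 and -0.703 and Slc6a3 in cerebellum to -0.240. Among 4-digit animals alone the Slc18a2 to Ddc ratio in hypothalamus turned to 0.0156. With the length and GC correction Drd2, Maoa and Gnai1 in hypothalamus turned to -0.0755, 0.0285 and 0.000785. With limma-voom Th in cortex turned to -0.353, Drd4 in amygdala over cortex to -0.124 and Drd3 in hippocampus over cortex to -0.169 (-0.0984 with the block). With a pseudocount of 2, Slc6a3 over Th in cortex turned to 0.00968 and the hypothalamus to hippocampus difference of Slc18a2 over Ddc to 0.000126. Without the 3 cortex libraries of low bulb markers, Slc6a3 in cortex turned to 0.145. With 1 library left out at a time, estimates crossed 0 for Drd2 and Drd5 in hypothalamus (-0.0235 to 0.119 and -0.223 to 0.0893), Th and Drd1 in hippocampus (-0.291 to 0.203 and -0.0468 to 0.0978), Slc6a3, Drd1 and Drd2 in cortex (-0.355 to 0.0473, -0.00383 to 0.138 and -0.0312 to 0.392) and Drd4 in cerebellum (-0.0771 to 0.191). Over all genes, 2939 were called in hypothalamus, 2014 to 4119 with 1 library left out, 403 with the length and GC correction, 3 with the series as a covariate and 1 among 3-digit animals, and 92 in cerebellum, 6 to 903 with 1 library left out, 505 with DESeq2, 433 with the length and GC correction, 57 with the wider filter and 0 with the series. The 0 called in amygdala became 95 with DESeq2, 14 with the series, 36 among 3-digit animals and 142 in the 10-group fit, the 0 in hippocampus 12 with DESeq2, 1 among 3-digit animals and 6 in the 10-group fit, and the 0 in cortex 4 with DESeq2 and 6 in the 10-group fit. The cause was not tested. Drd3 and Drd4 are limited by depth, with at most 1.87 and 1.13 CPM in any library.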
